A study of Mus musculus with 18 samples.

Results

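The nuclear genes for the subunits of mitochondrial complex I were taken as every RefSeq protein-coding gene on an autosome whose symbol begins with Ndufa, Ndufb, Ndufc, Ndufs or Ndufv, leaving out the Ndufaf assembly factors. This rule gave 39 of the 21887 protein-coding genes on the autosomes and sex chromosomes of the mouse table (GRCm38.p6, the assembly of mm10), and it used no measured value. It leaves out the subunit genes on the X chromosome and those in the mitochondrial genome. Mouse embryonic stem cells of a C57BL/6 strain came in 3 genotypes, labelled Mettl3 Control, KO1 and KO2 (2 knockout lines of Mettl3), and all grew with serum in DMEM with LIF, CHIR99021 (a GSK3 inhibitor) and PD0325901 (a MEK inhibitor). Mettl3 is the catalytic subunit of the enzyme that methylates adenosine in RNA (m6A), and the series asks how that mark bears on chromatin. Each genotype had 2 chromatin immunoprecipitation libraries for H3K27ac, found at active promoters and enhancers, and 2 for H3K4me3, found at promoters, so 12 peak lists in all. The 6 input samples were not analysed here. The labels do not say how the knockouts were made, whether each line is a single clone, or whether replicates are separate cultures. The p-values therefore reflect only how far these libraries spread, which can be technical variation.

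Complex I oxidises NADH, passes the electrons through a chain of iron-sulfur clusters to ubiquinone, and pumps protons across the inner mitochondrial membrane. Its N module takes electrons from NADH, its Q module hands them to ubiquinone, and its membrane arm, with proximal and distal parts, pumps protons. Core subunits carry the chemistry and accessory subunits surround them. Naive embryonic stem cells use both glycolysis and oxidative phosphorylation, and NRF1, GABPA and YY1 are transcription factors known for binding promoters of nuclear respiratory genes.

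Promoter sequence is shown first because part of the coverage described below is given by distance from the transcription start. It is shown for only some of the genes at which the marks changed most. The main measure was taken over the whole gene and 2 kb on either side. RefSeq promoter sequences (GRCm38.p6, 250 bases before and 50 after the start) were matched for 33 of the 39 members by gene identifier. The 250 bases before the start of Ndufb4, the member with the largest H3K27ac rise (chr16:37654369-37654618, minus strand), and of Ndufv2, the member whose H3K4me3 differed between the knockout lines (chr17:66101560-66101809, minus strand), are given 5′ to 3′, with capitals for matches to a relaxed form of the NRF1 motif, a pair of GCGC blocks separated by any 2 bases (NN).
Ndufb4: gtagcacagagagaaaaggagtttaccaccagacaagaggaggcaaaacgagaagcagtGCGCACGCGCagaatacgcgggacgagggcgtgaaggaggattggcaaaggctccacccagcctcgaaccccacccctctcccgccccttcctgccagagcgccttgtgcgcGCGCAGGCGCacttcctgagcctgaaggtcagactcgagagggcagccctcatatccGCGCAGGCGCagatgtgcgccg
Ndufv2: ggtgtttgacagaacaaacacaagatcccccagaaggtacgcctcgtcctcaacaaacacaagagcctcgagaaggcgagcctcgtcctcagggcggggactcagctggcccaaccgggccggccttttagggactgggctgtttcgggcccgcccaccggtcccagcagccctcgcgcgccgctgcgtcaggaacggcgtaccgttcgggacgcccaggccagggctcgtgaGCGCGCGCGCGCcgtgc
The Ndufb4 promoter held 3 separate matches and that of Ndufv2 2 overlapping ones.

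Short stretches show the same motif in Ndufa11 (chr17:56717692-56717721, plus strand), the only one of the 33 with the strict NRF1 form, in which AT separates the GCGC blocks, and Ndufs6 (chr13:73328483-73328508, minus strand), the member with the largest H3K4me3 fall:
Ndufa11: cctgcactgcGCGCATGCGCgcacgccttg
Ndufs6: cgactgctgtGCGCCTGCGCcggcac
Motifs were searched on both strands in the 300 bases, and the strict NRF1 form also matches the relaxed one. The relaxed form was present in 9 of 33 members, or 27.3%, against 9.61% of 17492 genes, and the strict form in 3.03% against 1.47%. The relaxed form was absent at Ndufv3 (H3K27ac log2 difference 1.13), Ndufs4 and Ndufa13 (H3K4me3 -1.11 and -0.99). It was present at Ndufs5 and Ndufa8, where H3K4me3 hardly differed (0.03 and -0.01). A link between motif and change was not tested. CCGGAAG, bound by ETS factors such as GABPA, was found in 4 members, 12.1% against 12.9% of all genes, and GGGGCGGGG, an SP-family motif, in 5 members, 15.2% against 17.3%.

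AAGATGGCG, a YY1 motif, was found in 5 members, 15.2% against 2.14% of all genes, each time in the sense orientation and 23 to 36 bases into the transcript. They are shown, in capitals, because all 5 lie at much the same distance from the start. The motif contains the letters ATG, and whether these are start codons was not tested.
Ndufa9: tgggagAAGATGGCGgccgcc
Ndufc1: cggaacAAGATGGCGccgtcc
Ndufs4: tacaggAAGATGGCGgcggtc
Ndufs6: accggcAAGATGGCGgcggtg
Ndufs7: gaggccAAGATGGCGgcgctg
These stretches lie at chr6:126849101-126849121, chr3:51408919-51408939, chr13:114388045-114388065 and chr13:73328435-73328455 on the minus strand and at chr10:80249467-80249487 on the plus strand. Member promoters had a median of 20 CpG dinucleotides and 59% GC, against 13 and 56.3% over all genes, so they are richer in the letters of the GC-rich motifs. A match describes letters in this window only.

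The members lie on 15 chromosomes and are short, with a median gene length of 7798 bp against 17169 bp over all genes. Coverage was measured over the gene and 2 kb on either side, and 29 of the 39 windows touched another protein-coding gene, while 17 held the listed start of another gene. A start on the opposite strand within 1 kb upstream of the gene's own start was listed for 10 of 33 members, 30.3% against 8.48% of all genes. The ribosomal protein gene Rps28 starts 10 bp from Ndufa7, Kbtbd4 19 bp from Ndufs3, Vmac 63 bp from Ndufa11 and Mrpl47 308 bp from Ndufb5. At such pairs the coverage cannot be assigned to either gene.

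Library-wide values moved with the genotype and frame every comparison below. H3K27ac peaks covered 14.4 and 14.6 Mb in the Control libraries, 19.6 and 17.5 Mb in KO1 and 37.0 and 35.5 Mb in KO2. H3K4me3 peaks covered 58.2 and 56.4 Mb in Control, 46.6 and 45.3 Mb in KO1 and 41.7 Mb in KO2 replicate 2, with KO2 replicate 1 between KO1 and Control. Mettl3 itself had 748 and 888 bp of H3K27ac in Control, 837 and 793 bp in KO1 and 1278 and 1122 bp in KO2 (log2 difference of the 2 lines from Control 0.18, limma adjusted p = 0.233). Its H3K4me3 was 2615 and 2886 bp, 1516 and 1659 bp, and 1919 and 1764 bp (-0.56, adjusted p = 0.0054). Peaks of these marks do not check a knockout. All 9 pluripotency markers, Pou5f1, Nanog and Sox2 among them, carried both marks in every library. Their summed H3K27ac coverage was 58197 and 58263 bp in Control, 56907 and 50718 bp in KO1, and 106642 and 105466 bp in KO2. Of the 9, 5 were called higher in H3K27ac in both lines together (55.6%, against 67.7% of all genes). Of 8 fibroblast markers 1 or 2 carried H3K27ac (summed coverage 8136 and 6887 bp in Control, 9838 and 8514 bp in KO1, 15532 and 14611 bp in KO2). Nearly all of it lay at Fn1 (8136 and 6887 bp in Control, 9688 and 8355 bp in KO1, 13690 and 12920 bp in KO2). Vim had 0 bp in Control, 150 and 159 bp in KO1, and 1842 and 1691 bp in KO2. The remaining fibroblast markers, Col1a1 among them, were at 0 throughout. Of 5 primitive endoderm markers 0 or 1 carried H3K27ac (0 bp in 5 libraries and 150 bp in KO2 replicate 2), with Gata6 and Sox17 at 0. The 5 neural and 5 trophectoderm markers had 204 and 206 bp and 0 bp in Control, 350 to 370 and 423 to 544 bp in KO1, and 2256 to 2362 and 2399 to 3077 bp in KO2, mostly at Tubb3 and Tfap2c, with Pax6 and Cdx2 at 0. Among tested markers, 2 of 2 fibroblast, 1 of 1 neural and 2 of 2 trophectoderm markers were called higher in H3K27ac in both lines together (67.7% of all genes). Vim and the tested trophectoderm markers were at 0 bp in Control, so their direction follows from the minimum coverage needed for a test. H3K4me3 was present at 2 to 5 fibroblast, 4 or 5 primitive endoderm, 4 or 5 neural and 3 or 4 trophectoderm markers in each library. The summed H3K4me3 coverage of the neural markers was 8557 and 8144 bp in Control, 4861 and 6171 bp in KO1, and 7584 and 6722 bp in KO2. For this mark 2 of the 5 neural markers were called lower (40%), and 0 in each of the other marker lists. The part of these in the member values was not tested. On chromosome 8, which holds Ndufa13 and Ndufb7, the knockout-minus-Control shift of gene coverage relative to the other autosomes was -0.21 (log2) for H3K27ac and -0.22 for H3K4me3, and on chromosome 4, which holds Ndufb6 and Ndufs5, it was -0.12 and -0.15. Coverage is a sum over many cells, so fewer cells or alleles carrying a mark and a weaker mark in each cannot be told apart.

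H3K27ac, the activity mark, was detected at most complex I genes in every library and was clearly broader in KO2. Of the 39 windows, 32 and 33 held a peak in the Control libraries, 33 and 34 in those of KO1, and 36 and 37 in those of KO2, or 82.1% to 94.9%, against 40.6% to 57.4% of all genes. The median covered length per member was 486 and 462 bp for Control, 633 and 521 bp for KO1, and 1348 and 1370 bp for KO2.

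**Figure D1:**
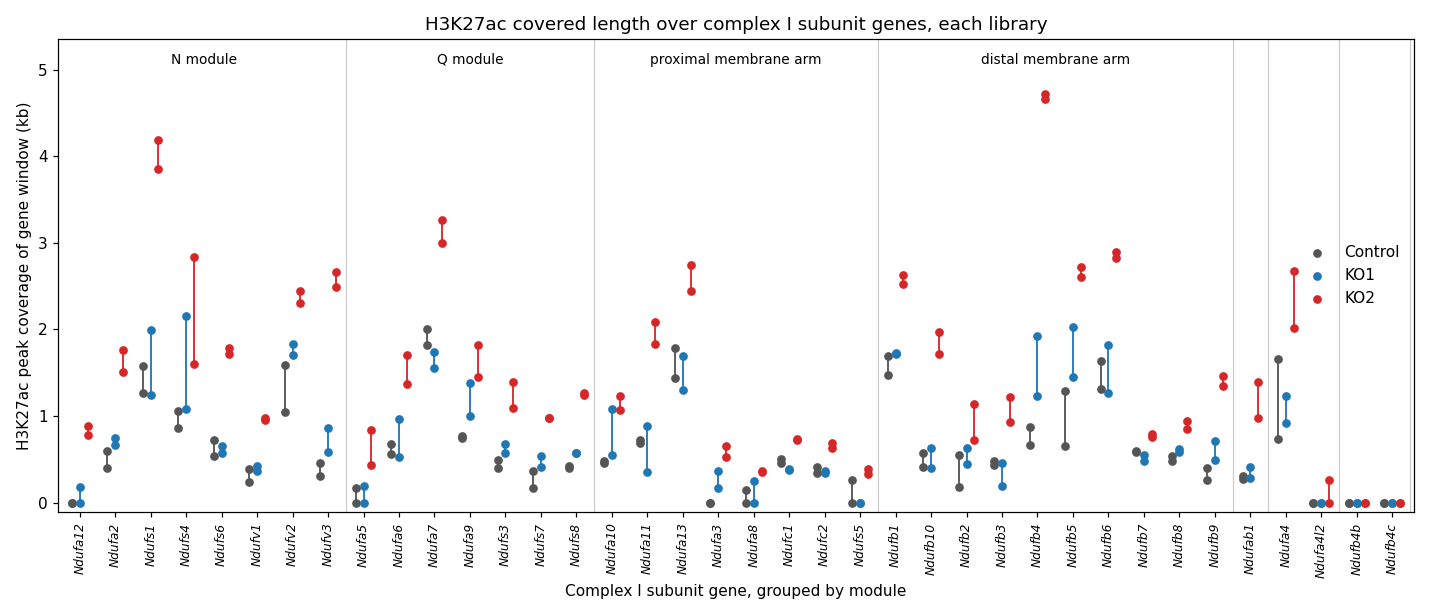
H3K27ac covered length (kb, y axis) over the subunit genes and 2 kb on either side, grouped by module. Each point is a library and each bar spans the 2 libraries of a genotype; the KO2 points of Ndufb4 (4724 and 4665 bp) are the highest, and Ndufb4b and Ndufb4c lie at 0 in all libraries.

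Values were compared as log2(covered bp + 500), which understates changes of low values, with limma over 10845 genes for H3K27ac and a Benjamini-Hochberg adjusted p of 0.05. Of the 39 members, 34 passed the minimum mean of 200 bp, of which Ndufa3, Ndufa5 and Ndufa12 were below it in Control and passed through the knockouts, so their direction follows from the minimum. In the contrast of both knockout lines together with Control, 22 of the 34 rose (64.7%) and 0 fell, where 67.7% of all tested genes rose and 0.221% fell. At an unadjusted p under 0.05, 23 were higher and 0 lower. The median log2 difference was 0.54 for members and 0.59 for all genes, so the members' share was close to the background. Without Ndufa3, Ndufa5 and Ndufa12, 20 of 31 members rose, with a median of 0.51. In 15 of the 34 (44.1%) every knockout library lay above both Control libraries, against 43.3% of all genes. Ndufa3, at 0 bp in both Control libraries, is among the 15. Without KO2 replicate 1 or KO2 replicate 2 the count of members that rose was 9, and without Control replicate 1 or 2 it was 14 and 13. Quantile normalization shifted the all-gene median from 0.59 to -0.05, and then 1 member was higher (Ndufb4; background 7.68%) and 2 lower (Ndufc1 and Ndufb7; background 5.97%), with a member median of -0.08.

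The lines differed. In KO1 alone 0 of 34 members passed in either direction, with 5 higher and 0 lower at an unadjusted p under 0.05, where 7.75% of all genes rose and 0.396% fell; the median was 0.14 for members and 0.21 for all genes. In KO2 alone 32 of 34 rose and 0 fell (background 87.2% and 0.203%), with medians of 0.87 and 0.95. The 2 members that did not pass in KO2 were Ndufb7 and Ndufc1. Tested directly, KO2 was above KO1 at 26 members and below it at 0 (background 71.7% and 0.267%), with medians of 0.72 and 0.71. Without KO2 replicate 1 or 2 that count was 10 and 12, and the KO2 count was 18 and 20. Of these, Ndufa3, Ndufa5 and Ndufa12 are counted in the 32 and in the 26; without them the counts are 29 and 23 of 31. Both lines were compared with the same Control libraries.

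The modules had different counts, with no test between them. In the N module 7 of 8 members rose (median 0.68), in the Q module 6 of 8 (0.58), in the proximal membrane arm 2 of 6 tested (0.34) and in the distal membrane arm 6 of 10 (0.46), where 67.7% of all genes rose. Ndufa12 in the N module and Ndufa3 in the proximal arm are among these calls; without the members that were below the minimum in Control the counts were 6 of 7, 6 of 7, 1 of 5 and 6 of 10. Ndufab1, the mitochondrial acyl carrier protein, which also serves lipoic acid synthesis, rose. Ndufa4, a former complex I subunit now placed in complex IV, did not pass (log2 difference 0.37, limma adjusted p = 0.195).

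The nuclear core subunits Ndufs1, Ndufs3, Ndufs7, Ndufs8, Ndufv1 and Ndufv2 rose, though after quantile normalization 0 of these passed and the sign turned at Ndufs3, Ndufs8, Ndufv1 and Ndufv2, as it did, with Ndufs1 added, when values were centred by chromosome. Ndufs1, the largest iron-sulfur subunit, had 1575 and 1265 bp in Control, 1993 and 1246 bp in KO1 and 4187 and 3858 bp in KO2, a log2 difference of 0.68 ± 0.17 (SE; limma adjusted p = 0.0114). Its KO1 values overlapped Control and its KO2 values stood well above. Ndufs7, which holds the last cluster before ubiquinone, had 164 and 369 bp in Control, 537 and 414 bp in KO1 and 976 and 980 bp in KO2 (0.66 ± 0.16). Ndufs8, another iron-sulfur subunit, had 418 and 396 bp, 575 and 574 bp, and 1239 and 1261 bp (0.60 ± 0.13). For Ndufs7 and Ndufs8 every knockout library lay above both Control libraries. Ndufs3, a scaffold of the Q module with Kbtbd4 at its start, had 489 and 401 bp, 571 and 675 bp, and 1391 and 1098 bp (0.56 ± 0.15). Ndufv2, an iron-sulfur subunit of the N module, had 1043 and 1595 bp, 1701 and 1831 bp, and 2445 and 2302 bp (0.50 ± 0.15). Of the Control coverage at Ndufv2, 521 and 567 bp lay past the far end of the gene. Ndufv1, which binds NADH and FMN, had 385 and 242 bp, 369 and 418 bp, and 953 and 981 bp (0.50 ± 0.14). Leaving out a single library ended the call for 5 of these: the adjusted p then was at most 0.0688 for Ndufs1 (without KO2 replicate 1; also lost without Control replicate 2 or KO2 replicate 2), 0.0655 for Ndufs3 (Control replicate 2; also KO2 replicate 1), 0.0769 for Ndufs7 (Control replicate 1; also either KO2 replicate), 0.111 for Ndufv1 (Control replicate 2; also either KO2 replicate) and 0.129 for Ndufv2 (Control replicate 1; also any knockout library). Ndufs8 passed in all 6 such fits. The windows of Ndufs1, Ndufv2 and Ndufs8 hold the listed start of another gene (Eef1b2, Ankrd12, and Aldh3b1 or Tcirg1). Those of Ndufs7 and Ndufv1 touch Gamt and Doc2g, so coverage of these windows cannot be assigned to the subunit gene alone.

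The largest rises were at accessory subunits. Ndufb4 of the distal membrane arm (gene at chr16:37647602-37654368, with no other coding gene in its window) had 875 and 666 bp in Control, 1921 and 1231 bp in KO1 and 4724 and 4665 bp in KO2, a log2 difference of 1.36 ± 0.16 (adjusted p = 0.00113), and it was called also after quantile normalization but not when centred by chromosome (0.59, adjusted p = 0.0521). Ndufv3, a small N-module subunit (chr17:31520115-31531326), had 311 and 462 bp, 861 and 589 bp, and 2663 and 2491 bp (1.13 ± 0.15, adjusted p = 0.00169). In both genes the genotypes did not overlap and KO2 was highest. At Ndufv3 the gain lay mostly away from its own start: beyond 2 kb from the start coverage was 311 and 462 bp in Control and 2076 and 1809 bp in KO2. That window also touches Wdr4, so the gain cannot be assigned to Ndufv3 alone. At Ndufb4 the Control peaks sat 145 to 3239 bp from the start, whereas in KO2 peaks reached from 1460 bp upstream to 4586 bp downstream. Ndufb5, whose start is shared with Mrpl47, a mitochondrial ribosomal protein gene, had 654 and 1291 bp, 1450 and 2028 bp, and 2603 and 2722 bp (0.88 ± 0.20; adjusted p = 0.0602 and 0.0663 without KO2 replicate 1 and 2). Ndufb9, an LYR-motif subunit whose window also touches Mtss1 and Tatdn1, had 260 and 399 bp, 714 and 490 bp, and 1348 and 1460 bp (0.81 ± 0.16).

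Some members had little or no H3K27ac to begin with. Ndufa3, of the proximal membrane arm, was at 0 in both Control libraries and had 363 and 167 bp in KO1 and 653 and 522 bp in KO2. Ndufa12, an N-module subunit related to the assembly factor Ndufaf2, was at 0 in Control, had 178 and 0 bp in KO1, and 880 and 778 bp in KO2. Both passed the minimum only through the knockouts, so their calls (0.86 and 0.81) follow from the filter and from the pseudocount and are no measure of fold. Ndufa5, a Q-module subunit, had 0 and 163 bp in Control, 0 and 190 bp in KO1 and 841 and 436 bp in KO2 (0.49, adjusted p = 0.0858), and was called in KO2 against Control and against KO1. Below the minimum were Ndufa8 and Ndufs5, a pair of cysteine-rich subunits facing the intermembrane space. Ndufa8 had 150 and 0 bp in Control, 0 and 244 bp in KO1 and 352 and 363 bp in KO2, and Ndufs5 had 0 and 263 bp, 0 and 0 bp, and 333 and 387 bp. Ndufa4l2, a hypoxia-induced paralog of Ndufa4, had 263 bp in KO2 replicate 2 and none elsewhere. Ndufb4b and Ndufb4c, 471 and 485 bp long, had no peak of either mark in any of the 12 libraries.

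The smallest H3K27ac differences were at Ndufb7, on chromosome 8, with 601 and 587 bp in Control, 549 and 481 bp in KO1 and 787 and 759 bp in KO2 (0.05 ± 0.13), and at Ndufc1 of the proximal arm (0.09 ± 0.13). Next came Ndufc2 (0.18 ± 0.13), Ndufa7 (0.21 ± 0.11), Ndufb3 (0.23 ± 0.18) and Ndufa13 (0.24 ± 0.14), and none of these 6 passed. In each the KO1 values overlapped Control or lay below it, and both KO2 libraries were above both Control libraries. After quantile normalization or centring by chromosome the sign of all 6 turned. Centred by chromosome, Ndufb7 and Ndufa13 had differences of -0.34 and -0.16 (adjusted p = 0.147 and 0.45).

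The 3 largest differences between the lines were at Ndufb4 (KO2 minus KO1, log2 1.34 ± 0.19), Ndufv3 (1.34 ± 0.18) and Ndufb10 (1.21 ± 0.19). Ndufb10 is an intermembrane-space subunit whose window also holds the start of the ribosomal protein gene Rps2. Within 2 kb of its own start Ndufb10 had 164 and 0 bp in Control, 0 and 0 bp in KO1 and 754 and 884 bp in KO2. Beyond 2 kb, where coverage cannot be assigned to Ndufb10, there were 409 and 410 bp, 635 and 400 bp, and 958 and 1086 bp. The whole window had 573 and 410 bp in Control, 635 and 400 bp in KO1 and 1712 and 1970 bp in KO2. KO1 was level with Control there and the KO2 libraries stood apart; the call of both lines against Control ended without Control replicate 2 (adjusted p = 0.0697) or either KO2 replicate (0.0513 and 0.0644). After quantile normalization the adjusted p of these 3 differences was 0.0801, 0.0532 and 0.121, with all 3 still positive.

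H3K4me3, the promoter mark, covered complex I genes broadly and was shorter at part of them in both knockout lines. All members but Ndufb4b and Ndufb4c, 37 of 39, had a peak in each of the 6 libraries (94.9%, against 66.6% to 68.4% of all genes). The median covered length per member was 2609 and 2555 bp in Control, 2018 and 2084 bp in KO1, and 1952 and 1810 bp in KO2. The 3 genotypes therefore did not differ in how many subunit genes were marked, while the median marked length was longest in Control.

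**Figure D2:**
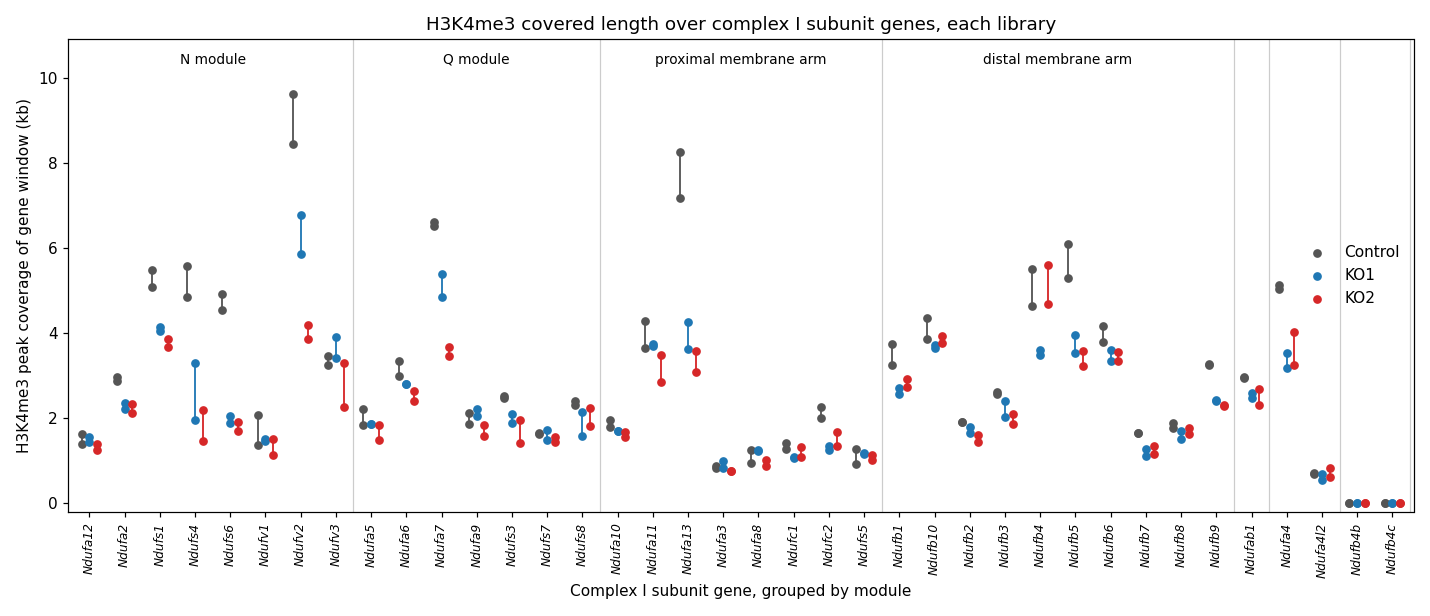
H3K4me3 covered length (kb, y axis) over the subunit genes and 2 kb on either side, grouped by module. Each point is a library and each bar spans the 2 libraries of a genotype; Control lies above both knockout lines most clearly at Ndufv2, Ndufa13, Ndufs4, Ndufs6 and Ndufb5.

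Among 37 members tested, 12 had less H3K4me3 in both lines together (32.4%) and 0 had more, against 20.9% lower and 3.03% higher among 14404 genes; 16 were lower and 0 higher at an unadjusted p under 0.05. The log2 difference was negative for 36 of 37, with a median of -0.22 for members and -0.14 for all genes. In 22 of 37 (59.5%) every knockout library lay below both Control libraries, against 36.8% of all genes. KO1 alone had 9 members lower and 0 higher (background 12.7% and 1.45%), and KO2 alone 10 and 0 (20.8% and 4.46%). Without Control replicate 1 or 2 the count for both lines was 4 and 5 and that for KO2 5 and 6. The KO1 count was 2 and 1 without Control replicate 1 or 2, and 3 and 1 without KO1 replicate 1 or 2. Quantile normalization shifted the all-gene median from -0.14 to 0.00, and then 5 members were lower and 0 higher (background 8.48% and 9.32%), at Ndufs6, Ndufa13, Ndufs4, Ndufv2 and Ndufc2. By module 5 of 8 N-module members fell, 2 of 8 in the Q module, 2 of 8 in the proximal arm and 2 of 10 in the distal arm, with Ndufa4 the remaining call, against 20.9% of all genes. Of the 10 members whose window touched no other coding gene 2 fell (20%, median -0.18), and of the 27 tested whose window touched one 10 fell (37%, median -0.25). For H3K27ac 4 of 9 tested rose in the first of these sets (44.4%) and 18 of 25 in the other (72%). No test between these sets or between the modules was made.

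The N module held 3 of the 4 largest falls. Ndufs6, a zinc-binding accessory subunit (chr13:73319876-73328482), had 4535 and 4928 bp in Control, 1879 and 2041 bp in KO1 and 1699 and 1896 bp in KO2, and fell by 1.14 ± 0.09 on the log2 scale (limma adjusted p = 0.000569). Ndufs4, an accessory subunit whose loss causes Leigh syndrome and the longest member gene (100300 bp, chr13:114287795-114388094), had 4855 and 5572 bp, 3286 and 1941 bp, and 2193 and 1460 bp, and fell by 1.11 ± 0.19 (adjusted p = 0.00603, and 0.0636 without Control replicate 2). In both genes all 4 knockout libraries were far below Control, and at Ndufs4 the replicates were more spread. Ndufv2 (chr17:66078795-66101559) had 9641 and 8460 bp in Control, 5860 and 6776 bp in KO1 and 4195 and 3868 bp in KO2, and fell by 0.78 ± 0.11 (adjusted p = 0.00231). It was the member for which KO2 was called below KO1, by 0.59 ± 0.12 (adjusted p = 0.0418; background 2.02% lower and 2.6% higher), and that call ended without either Control replicate (0.0809), without KO1 replicate 1 or 2 (0.127 and 0.235) or without KO2 replicate 2 (0.0947).

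Ndufa13, also known as GRIM-19 and needed for assembly of the membrane arm (chr8:69894163-69902558), had 7175 and 8271 bp in Control, 4265 and 3618 bp in KO1 and 3585 and 3084 bp in KO2, and fell by 0.99 ± 0.11 (adjusted p = 0.00123). Centred on its chromosome the difference was -0.66 (limma adjusted p = 0.00148). The window also holds the starts of Tssk6, 164 bp from that of Ndufa13, and of Yjefn3, so its coverage cannot be assigned to Ndufa13 alone. Ndufb5 had 6100 and 5287 bp, 3538 and 3951 bp, and 3567 and 3216 bp, and fell by 0.61 ± 0.10 (adjusted p = 0.0719 without Control replicate 1). Ndufa7, a Q-module subunit sharing its promoter region with Rps28, had 6615 and 6532 bp, 4848 and 5388 bp, and 3668 and 3454 bp, and fell by 0.57 ± 0.09 (adjusted p = 0.0588 without Control replicate 1). KO2 lay below KO1 at Ndufa7 in every library, but that difference, -0.47 ± 0.11, had an adjusted p of 0.0519, and 0.0305 after quantile normalization. Ndufb4 showed the opposite order, with 4646 and 5514 bp in Control, 3589 and 3469 bp in KO1 and 5599 and 4694 bp in KO2 (KO2 minus KO1 0.48 ± 0.13, adjusted p = 0.0812, and 0.0079 after quantile normalization). Other falls were at Ndufa4 (-0.49), Ndufc2 (-0.47), Ndufb9 (-0.40), Ndufs1 (-0.39) and Ndufa2 (-0.32).

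Among core subunits Ndufv2 and Ndufs1 fell. Ndufs1 had 5495 and 5083 bp in Control, 4148 and 4053 bp in KO1 and 3673 and 3856 bp in KO2 (adjusted p = 0.0186; lost without either Control or either KO1 replicate, at most 0.158 without Control replicate 1). Every knockout value of Ndufs1 was below Control. Ndufs3 had 2508 and 2472 bp, 1888 and 2084 bp, and 1952 and 1405 bp (-0.37 ± 0.12, adjusted p = 0.0588, and 0.0143 without KO2 replicate 1), again without overlap. Ndufs8 (-0.23 ± 0.13), Ndufv1 (-0.22 ± 0.15) and Ndufs7 (-0.06 ± 0.10) did not pass. The smallest differences were at Ndufs5 (0.03 ± 0.12), Ndufa8 (-0.01 ± 0.12), Ndufa3 (-0.02 ± 0.12), Ndufa4l2 (-0.04 ± 0.14) and Ndufa9 (-0.05 ± 0.10), whose Control and knockout values overlapped; the sign at each of these 5, and at Ndufs7 and Ndufv1, turned in at least 1 alternative analysis.

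H3K4me3 differed more away from the starts than near them. Over the 33 members with a listed start, coverage within 2 kb of it summed to 68.1 and 69.2 kb in Control, 63.4 and 62.3 kb in KO1, and 62.9 and 57.9 kb in KO2. In the rest of the windows it summed to 36.2 and 34.7 kb in Control, 16.7 and 16.5 kb in KO1, and 13.8 and 10.1 kb in KO2. The rest was thus 0.466 to 0.47 times the Control mean in KO1 and 0.286 to 0.39 times in KO2, while the part near the start kept 0.844 to 0.924 times. Ndufs6, Ndufs4, Ndufa13, Ndufv2 and Ndufb5, picked after these values were seen, held 18.8 and 18.5 kb of the rest in Control, 6.53 and 5.99 kb in KO1 and 3.33 and 1.96 kb in KO2. Without these 5 genes the rest was 0.604 to 0.628 times the Control mean in KO1 and 0.486 to 0.624 times in KO2, so a few genes carried much of the sum. Peaks were called separately in each library, so these sums also move with how much was called in it, which was 56.4 to 58.2 Mb in Control and less in every knockout library. Over all 17492 genes with a start the rest was 0.658 to 0.685 times in KO1 and 0.544 to 0.704 times in KO2, and the near part 0.89 to 0.967 times. In the window of 2 kb around the start 0 of 32 tested members were called (9 lower and 0 higher at an unadjusted p under 0.05; background 3.01% lower and 0.56% higher). In the rest of the window, an analysis added after these values had been seen, 7 of the 15 testable members fell and 0 rose (background 32.9% and 4.06%): Ndufs6, Ndufs4, Ndufa13, Ndufv2, Ndufb5, Ndufa4 and Ndufa7. The median there was -0.65, against -0.32 for all genes.

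**Figure D3:**
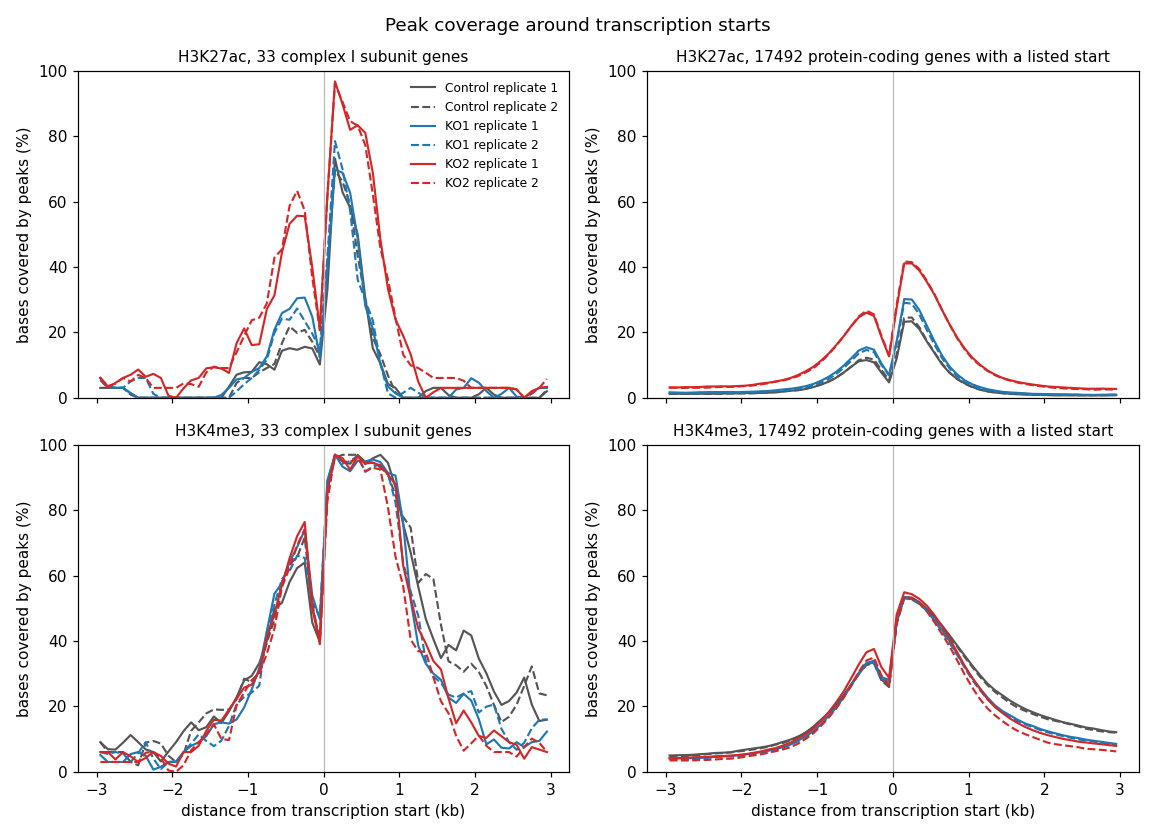
Percent of bases covered by peaks (y axis) by distance from the transcription start (kb, x axis) for members and for all genes with a listed start; a line is a library. For H3K4me3 the libraries coincide within 1 kb downstream (89.0% to 93.9% covered in members) and separate from 1 to 3 kb, while H3K27ac in KO2 stands above the other genotypes on both sides of the start.

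Around the starts the zones differed by mark. From 0 to 1 kb downstream H3K4me3 covered 93.9% and 93.1% of member bases in the Control libraries, 93.4% and 92.4% in the KO1 libraries, and 92.9% and 89.0% in the KO2 libraries. From 1 to 2 kb it covered 48.3% and 50.5%, then 34.8% and 35.2%, then 33.6% and 26.6%. From 2 to 3 kb it covered 23.7% and 23.6%, then 9.66% and 14.2%, then 8.68% and 7.47%. Summed over members, Control was thus above every knockout library from 1 to 3 kb, and the zone next to the start was nearly full in all 6. Control also stood above every knockout library over all 17492 genes with a start. There H3K4me3 covered 22.9% to 23.4% from 1 to 2 kb for Control, against 15.85% to 19.1% among the knockouts. From 2 to 3 kb it covered 13.8% to 14.1% against 7.445% to 10.2%, so the direction was not particular to members. H3K27ac in the first 1 kb downstream covered 34.1% and 35.1% of member bases in the Control libraries, 35.4% and 35.0% in the KO1 libraries, and 66.9% and 66.2% in the KO2 libraries. In the 1 kb upstream it covered 12.3% and 14.2%, then 20.2% and 17.9%, then 36.1% and 40.2%. KO1 was level with Control downstream of the start and above it upstream, and KO2 was above both on either side. Over all genes KO2 was also highest on either side. In the first 1 kb downstream its H3K27ac covered 29.8% to 30.05% of all-gene bases, where Control had 13.8% to 14.3%. KO1, at 16.95% to 17.8%, lay above Control there, which it did not in members.

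Individual genes show the shorter H3K4me3 peak by peak. At Ndufs6 the Control lists held 10 and 11 peaks, reaching 7358 and 6972 bp into the gene, whereas the knockout lists held 2 or 3 peaks that ended at 1122 and 1969 bp in KO1 and at 988 and 1434 bp in KO2. Beyond 2 kb from the start Ndufs6 had 2465 and 2398 bp in Control and 0 in all 4 knockout libraries. The window of Ndufa13 also holds the starts of Tssk6 and Yjefn3, so its coverage cannot be assigned to 1 gene. At Ndufa13 the part beyond 2 kb was 3681 and 4668 bp in Control, 732 and 178 bp in KO1 and 259 and 150 bp in KO2. At Ndufc2, which has no neighbour in its window, it was 542 and 647 bp in Control and 0 in all knockout libraries. At Ndufv2 it was 6882 and 5724 bp in Control, 3070 and 4036 bp in KO1 and 1692 and 1467 bp in KO2, and a block of peaks beyond the far end of the gene, on the side of Ankrd12, was present in all 6. Not every window lost it: beyond 2 kb that of Ndufb10 had 2202 and 2208 bp in Control, 2012 and 2253 bp in KO1 and 2031 and 2066 bp in KO2. Ndufb10 is 2364 bp long, so most of that part lies past its far end. The window also holds the start of Rps2, so this coverage cannot be assigned to Ndufb10.

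**Figure D4:**
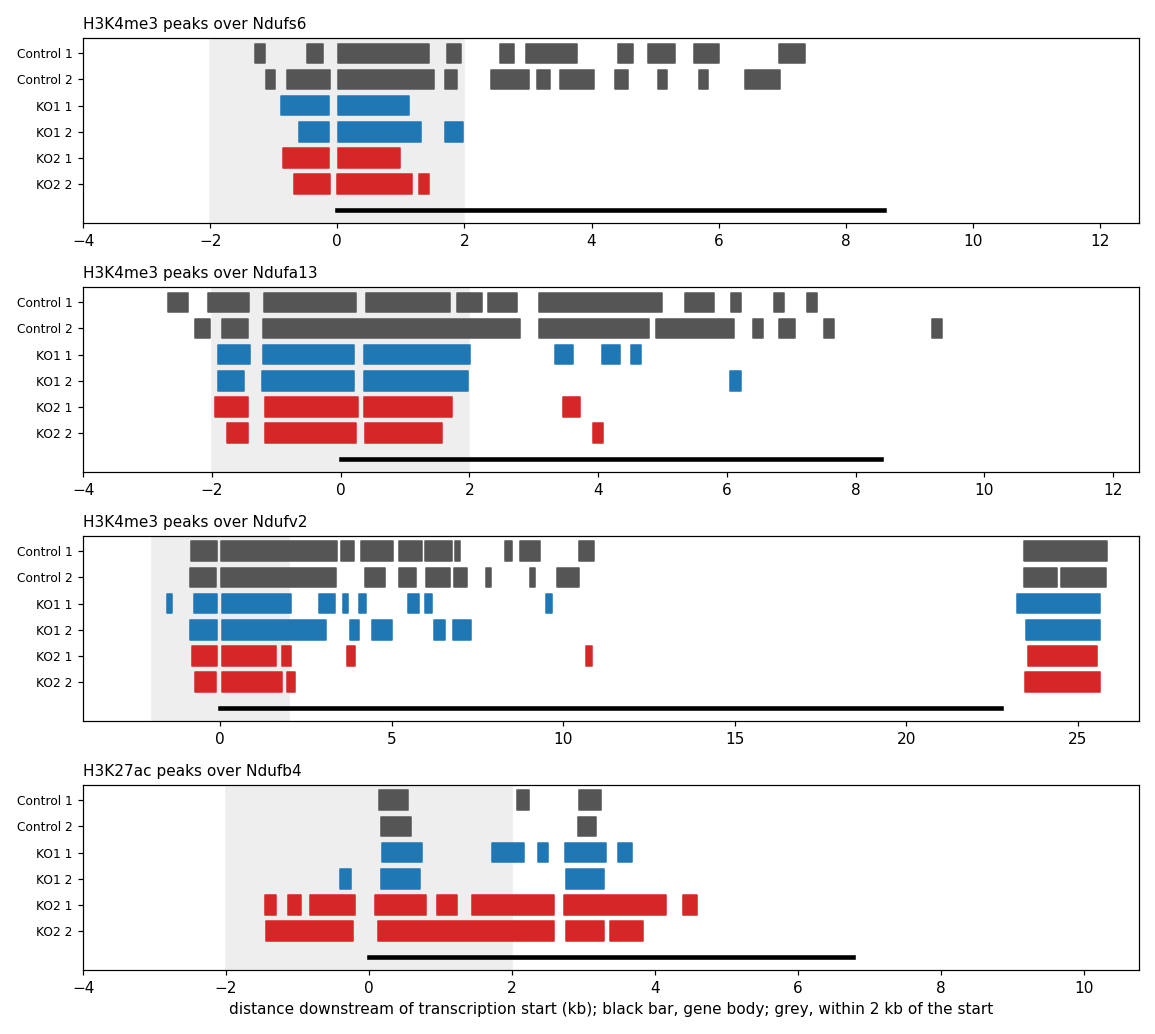
Peaks of each library (rows) over Ndufs6, Ndufa13, Ndufv2 (H3K4me3) and Ndufb4 (H3K27ac), by distance from the start (kb, x axis); the black bar is the gene. The Control rows of Ndufs6 run to 7358 and 6972 bp and the knockout rows end before 2 kb, whereas at Ndufb4 the KO2 rows are the widest.

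The calls of both marks were also counted jointly over the 34 members tested for both. H3K27ac was called higher and H3K4me3 lower at 7 (20.6%, against 15.6% of 10791 genes tested for both), among them Ndufs1, Ndufv2, Ndufs6, Ndufa2, Ndufb5 and Ndufb9. H3K27ac was called higher and H3K4me3 not called at 15 (44.1%, against 52.1%), H3K4me3 was called lower and H3K27ac not called at 5 (14.7%, against 10.8%; Ndufs4, Ndufa13, Ndufa7, Ndufa4 and Ndufc2), and 7 passed in neither. Ndufa3 and Ndufa12, which passed the H3K27ac minimum only through the knockouts, are among the 15. A missing call does not show that a mark was unchanged: Ndufs3, not called for H3K4me3, had an adjusted p of 0.0588, and Ndufs4, not called for H3K27ac, had 1063 and 865 bp in Control, 2152 and 1082 bp in KO1 and 2833 and 1601 bp in KO2 (adjusted p = 0.0532), with every knockout library above Control. At Ndufs6 H3K27ac was 541 and 718 bp in Control, 576 and 652 bp in KO1 and 1718 and 1782 bp in KO2, and its KO1 values lay within the Control range while those of KO2 stood above it. Members with the relaxed NRF1 motif had 5 of 7 tested higher in H3K27ac and 2 of 9 lower in H3K4me3, and those with AAGATGGCG 3 of 5 and 2 of 5. With CCGGAAG these were 3 of 4 and 0 of 4, and with GGGGCGGGG 3 of 4 and 1 of 5, where 67.7% of all genes were higher and 20.9% lower. The GGGGCGGGG members called higher include Ndufa3, and the 7 tested with the relaxed NRF1 motif include Ndufa5. Both were below the H3K27ac minimum in Control.

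The other nuclear genes of oxidative phosphorylation are given for scale, beside 67.7% of all genes higher in H3K27ac and 20.9% lower in H3K4me3. Complex I assembly factors had 6 of 18 tested members higher in H3K27ac (median 0.33) and 1 of 19 lower in H3K4me3 (-0.20). At Ndufaf6 H3K27ac rose (1.32 ± 0.16), and at Nubpl, which delivers iron-sulfur clusters to complex I, H3K4me3 fell (-0.51). Complex II had 6 of 8 higher and 3 of 8 lower, led by the assembly factor Sdhaf1 (H3K27ac 0.99) and the iron-sulfur subunit Sdhb (H3K4me3 -0.79; chromosome 4). Complex III had 4 of 9 higher and 3 of 9 lower, led by Uqcr10 (1.05) and Uqcrfs1, the Rieske protein (-0.52). Complex IV had 5 of 11 in each direction, led by Cox7b (1.10) and Cox6c (-0.75). ATP synthase had 9 of 15 higher and 3 of 15 lower, led by Atp5h (1.13) and Atp5pb (-0.51). Nuclear regulators of mitochondrial genes had 8 of 9 higher and 4 of 12 lower, led by Esrra (1.18) and Pprc1 (-0.62). None of these 6 lists had a member called lower in H3K27ac or higher in H3K4me3. Without Control replicate 1 the H3K27ac counts were 3, 2, 2, 4, 5 and 6 in this order and the H3K4me3 counts 0, 2, 0, 1, 0 and 0. Without Control replicate 2 they were 5, 5, 3, 3, 6 and 6, and 0, 1, 0, 2, 0 and 0. Without KO2 replicate 1 the H3K27ac counts were 3, 3, 4, 3, 5 and 5, and without KO2 replicate 2 they were 6, 3, 3, 4, 5 and 5. After quantile normalization at most 1 gene of a list was higher in H3K27ac and 2 of complex IV were lower, while the H3K4me3 falls numbered 1, 2, 0, 1, 0 and 0 and up to 3 genes of a list (nuclear regulators) were higher. The complex I counts lie inside the range of the other complexes for both marks, and no test between lists was made.

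**Figure D5:**
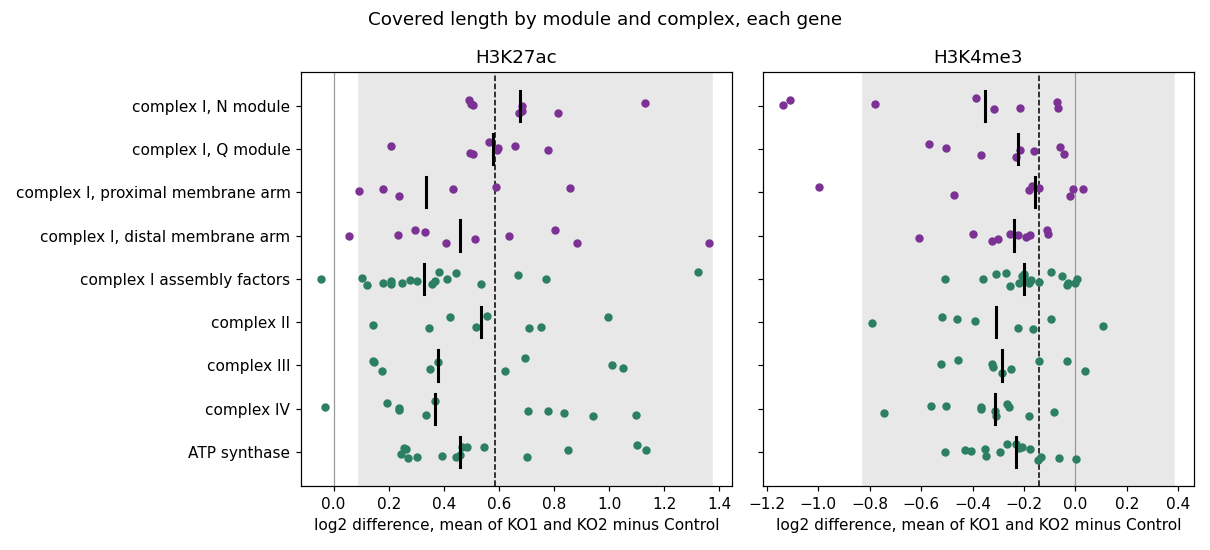
Log2 difference of covered length, mean of KO1 and KO2 minus Control (x axis), for each tested gene (point) by complex I module and by other complex, with the list median as a short bar. The dashed line is the median of all genes (0.59 for H3K27ac, -0.14 for H3K4me3) and the grey band runs from their 5th to their 95th percentile (0.09 to 1.37, and -0.83 to 0.38); Ndufs6, Ndufs4 and Ndufa13 lie below the H3K4me3 band.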

How the data were processed

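Chromatin from formaldehyde-fixed cells was immunoprecipitated with a Diagenode kit, with spike-in chromatin and antibody from Active Motif, per the labels' protocols. The submitters' processing notes name CASAVA, Trimmomatic 0.38, Bowtie 1.2.2, MACS2 and build mm10; the version of MACS2 and any use of input or spike-in were not given in the sources used here. Each library has 1 peak list deposited by the authors, with a fold enrichment (ratio) and −log10 p and q of each peak; the largest q in a list was 0.00861 to 0.00998. Lists held 29973 to 83644 peaks, and read depth is unknown.

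Covered bp of peaks over each gene and 2 kb on either side was computed in Python 3.11.15 for 21887 genes. Genes whose 6 libraries of a mark averaged 200 bp or more were fitted as log2(bp + 500) with limma 3.58.1 (lmFit, eBayes with a trend; R 4.3.3), without a replicate block, at a Benjamini-Hochberg adjusted p of 0.05. Differences are ± SE, from 2 Control and 4 knockout libraries, or 2 and 2. On simulated data 98% to 100% of changes of 1 on the log2 scale were recovered for H3K27ac (10439 genes) and 100% for H3K4me3 (14303 genes). The changed genes were drawn only from those with long coverage, with normal noise and the same change in both lines. Most members were below that level for H3K27ac, so recovery at such low values was not tested. Replicates of a group were distinct (0 to 7 identical peaks; Jaccard index 0.553 to 0.648).

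Named per mark were the 6 largest and the 6 smallest or most negative differences, the 3 largest KO2 minus KO1 differences, core subunits and members without peaks or below the minimum, and in each other list the extremes; the remaining called members, Ndufa4, and the peak-level and distance examples were chosen after their values were seen. The other lists held 8 to 19 genes; 19 of 20 assembly factor symbols matched. Members and lists were chosen with earlier results of these data known. Alternatives were other pseudocounts, windows, scalings and thresholds, a replicate block and each library left out. Results of 1 member are not reported here, though it counts in the totals.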

Additional observations from a re-analysis of the deposited data

Results flagged for a closer look

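A direct comparison of the knockout lines separated them at several members. For H3K27ac, KO2 was above KO1 at 26 of 34 members (limma, adjusted p under 0.05; 71.7% of all genes), and among the named genes the log2 differences were 1.34 for Ndufb4, 1.34 for Ndufv3 and 1.21 for Ndufb10. Without Ndufa3, Ndufa5 and Ndufa12, which were below the minimum in Control, the count was 23 of 31. For H3K4me3, KO2 was below KO1 at 1 of 37 members, Ndufv2, with a log2 difference of -0.59. This was 2.7% of members, where 2.02% of all genes were lower. The call ended with no minimum (adjusted p = 0.051), with equal peak numbers (0.0922), at the stricter q (0.229), in windows at the start and at the gene ends (0.348 and 0.313), and without any single library other than KO2 replicate 1 (0.0809 to 0.235). KO2 H3K27ac lists covered 37.0 and 35.5 Mb in all and KO1 lists 19.6 and 17.5 Mb; the part of this total in the gene values was not tested beyond the scalings given under the processing.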

How the results depend on the processing

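Counts of members changed with scaling, window and left-out libraries. The order of the counts below is both lines, KO1, KO2 (each against Control) and KO2 against KO1. For H3K27ac, members called higher numbered 22, 0, 32 and 26 (20, 0, 29 and 23 without Ndufa3, Ndufa5 and Ndufa12). After quantile normalization they were 1, 0, 2 and 0, with 2 and 3 lower for both lines and KO2. Centred by chromosome they were 0, 0, 2 and 0, with 1 and 5 lower. With equal peak numbers the count for both lines was 11, with a pseudocount of 150 bp the KO1 count was 1, and in the rest of the window, an alternative chosen after seeing the data in which 8 members could be tested, the counts were 3, 0, 6 and 4. For H3K4me3, members called lower numbered 12, 9, 10 and 1. They were 5, 2, 5 and 2 after quantile normalization, with 1 higher (Ndufb4) in KO2 against Control and 1 against KO1, and 6, 3, 5 and 0 with peaks at q of 1e-05 or less. At the transcription start they were 0, 0, 0 and 0, at the gene ends 4, 1, 3 and 0, and in the rest of the window 7, 6, 7 and 2. Centring by chromosome gave 4 for KO1, equal peak numbers 3 for KO1, and no minimum 0 for KO2 against KO1. The cause of these changes was not tested, beyond the smaller number of genes in the narrower windows.

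With a single library left out, where the lone sample of a group is assumed to vary like the others, H3K27ac counts ran from 9 to 22 (both lines), 18 to 31 (KO2) and 10 to 27 (KO2 against KO1), and H3K4me3 counts from 4 to 14 (both lines), 1 to 10 (KO1), 5 to 13 (KO2) and 0 to 2 (KO2 against KO1); the other directions stayed at 0. Replicate numbers did not pair the libraries: deviations of same-numbered libraries correlated at -0.009 to 0.019. With the replicate block H3K27ac counts were 23, 0, 31 and 26 and H3K4me3 counts 12, 7, 10 and 1. A minimum overlap of 200 bp gave 29 to 37 members with H3K27ac and 37 with H3K4me3.

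Signs turned mainly under rescaling. For H3K27ac, both lines against Control, the values by chromosome centring and by quantile normalization were -0.16 and -0.36 (Ndufa13), -0.40 and -0.41 (Ndufa7), -0.46 and -0.42 (Ndufb3), -0.34 and -0.59 (Ndufb7), -0.56 and -0.59 (Ndufc1), -0.49 and -0.50 (Ndufc2), -0.038 and -0.062 (Ndufs3), -0.072 and -0.033 (Ndufs8), -0.17 and -0.16 (Ndufv1) and -0.10 and -0.087 (Ndufv2), and Ndufs1 was -0.014 when centred. For H3K4me3, centring gave 0.081 (Ndufa3), 0.17 (Ndufa4l2), 0.15 (Ndufa8), 0.11 (Ndufa9) and 0.15 (Ndufs7), and quantile normalization 0.010 (Ndufa8), 0.086 (Ndufa9), 0.12 (Ndufb4) and 0.023 (Ndufs7). Ndufs5 was -0.015 at the stricter q, Ndufb4 0.18 at the start and Ndufa4l2 0.11 at the gene ends. With a library left out, Ndufa3 ran from -0.069 to 0.024, Ndufa4l2 from -0.11 to 0.028, Ndufa8 from -0.15 to 0.13, Ndufa9 from -0.12 to 0.028, Ndufs5 from -0.13 to 0.19 and Ndufv1 from -0.45 to 0.016. Of 137 values for named members with H3K27ac and a library left out, 115 kept direction and call; of 126 with H3K4me3, 100 did. For other alternatives these were 183 of 234 and 175 of 218. Read depth is not known here, so a missing peak may be a peak below the caller's threshold.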
